A study of Mus musculus with 12 samples.

Results

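Kallikreins are secreted serine proteases, and the clade B serpins and Spink proteins include inhibitors of such proteases. These 3 gene families were followed in mouse mammary organoids over 4 levels of WNT pathway stimulation. The members are all genes of the deposited count table whose symbol is Klk, Serpinb or Spink followed by a number, with a final letter allowed for Serpinb. This rule reads names and no measured value. It gave 47 of the 25210 genes in the table, namely 11 kallikrein (Klk), 27 Serpinb and 9 Spink genes. Of these, 30 had enough counts to be tested, namely 10 Klk, 17 Serpinb and 3 Spink genes, out of 15316 genes tested in all.

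The organoids were primary cultures of mammary epithelium from virgin female FVB/N mice aged 8 to 11 weeks. They were embedded in growth-factor-reduced Matrigel in a minimal medium and treated for 7 days with the vehicle dimethyl sulfoxide (DMSO) or with 1, 1.5 or 3 µM of CHIR99021, an inhibitor of GSK3. This kinase otherwise marks β-catenin (CTNNB1) for degradation. Cultures 1, 2 and 3 came from 3 animals, and each received all 4 treatments, so that there are 3 libraries per group and p-values measure the spread between these cultures. The sample titles tag cultures 1, 2 and 3 as med, min and max and do not say what these tags mean. No gene was altered in any group, and a single inhibitor stands in for WNT stimulation.

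In the epidermis, kallikreins cut the adhesion proteins that hold dead surface cells together, which lets these cells be shed. Klk5, Klk7 and Klk14 act in a cascade there, and LEKTI, the product of Spink5, binds and restrains them through its Kazal domains. Clade B serpins mostly stay inside the cell and trap a protease by an irreversible change of shape, one protease per serpin molecule. Some, such as maspin (Serpinb5), are not thought to inhibit proteases in this way.

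The libraries held 10.1 to 24.5 M counts (M, mega). Among markers of the labelled tissue, all 6 luminal and all 7 basal epithelial genes were found in each group. The luminal sum was 5126, 3034 and 3083 CPM (counts per M counts) in DMSO cultures 1, 2 and 3 and 2288, 2282 and 2562 CPM at 3 µM, where 3 of the 6 (Krt8, Krt18 and Krt19) were called lower. The summed level of 6 fibroblast genes in DMSO was 1548, 7166 and 20187 CPM in cultures 1, 2 and 3, and at 3 µM it was 164, 923 and 4484 CPM. The sum of 6 squamous markers (Krt1, Krt10, Ivl, Lor, Krtdap and Sbsn) was 64.1 to 78.0 CPM in DMSO, 112 to 542 CPM at 1 µM, 1108 to 4020 CPM at 1.5 µM and 1833 to 17671 CPM at 3 µM. All 6 rose at 1.5 and at 3 µM, and culture 3 had the lowest sum in each group. The basal sum was 2034 to 3393 CPM in DMSO and 16151 to 33970 CPM at 3 µM, where Krt5, Krt14, Krt17 and Trp63 rose and Acta2, Myh11 and Oxtr fell. The part of these other changes in the results on the 3 families was not tested. In bulk RNA, fewer cells of a type and less RNA per cell cannot be told apart.

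The members lie in clusters. On the deposited coordinates (GRCm38), all 11 Klk genes lie on chromosome 7 between bases 43690418 and 43885804, a stretch of 195 kb. Of the Serpinb genes, 12 lie on chromosome 1 between 106861173 and 107610484, and 15 lie on chromosome 13 between 32842092 and 34002794. Promoter windows were found for 37 of the 47 members in RefSeq (GRCm38.p6), which gave 47 windows from 250 bases before to 50 bases after a start. The 250 bases before the start are shown for Klk14, Klk7 and Klk5, the cascade members whose doses of change differ, for Serpinb9, the only tested member called lower at 3 µM against DMSO, and for Serpinb8 and Serpinb7, which hold a searched motif. Capitals mark a GATA factor motif on the other strand in Klk5 and an AP-1 motif in Serpinb8 and Serpinb7.
Klk14 (chr7:43690168-43690417, + strand): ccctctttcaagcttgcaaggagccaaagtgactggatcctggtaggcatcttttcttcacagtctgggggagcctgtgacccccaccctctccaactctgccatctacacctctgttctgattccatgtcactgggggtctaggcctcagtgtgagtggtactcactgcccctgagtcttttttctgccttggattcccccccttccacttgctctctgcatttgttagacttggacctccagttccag
Klk7 (chr7:43811044-43811293, + strand): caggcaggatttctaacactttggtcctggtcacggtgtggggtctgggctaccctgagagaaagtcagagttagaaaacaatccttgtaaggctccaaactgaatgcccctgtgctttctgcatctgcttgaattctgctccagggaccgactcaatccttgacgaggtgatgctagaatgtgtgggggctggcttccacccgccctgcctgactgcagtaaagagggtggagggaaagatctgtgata
Klk5 (chr7:43842019-43842268, + strand): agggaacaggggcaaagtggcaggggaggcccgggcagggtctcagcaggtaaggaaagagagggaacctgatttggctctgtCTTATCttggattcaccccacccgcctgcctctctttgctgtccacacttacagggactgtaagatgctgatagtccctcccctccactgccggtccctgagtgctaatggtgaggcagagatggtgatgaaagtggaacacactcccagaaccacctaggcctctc
Serpinb9 (chr13:33004291-33004540, + strand): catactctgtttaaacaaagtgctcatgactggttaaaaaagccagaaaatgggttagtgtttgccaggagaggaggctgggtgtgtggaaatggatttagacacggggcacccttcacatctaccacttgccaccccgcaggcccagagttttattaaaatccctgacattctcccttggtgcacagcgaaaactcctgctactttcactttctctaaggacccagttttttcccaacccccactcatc
Serpinb8 (chr1:107589756-107590005, + strand): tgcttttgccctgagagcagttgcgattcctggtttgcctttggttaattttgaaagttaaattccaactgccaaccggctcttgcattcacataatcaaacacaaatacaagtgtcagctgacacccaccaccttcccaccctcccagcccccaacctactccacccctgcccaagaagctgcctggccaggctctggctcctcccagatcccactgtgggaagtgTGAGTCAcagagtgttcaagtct
Serpinb7 (chr1:107422439-107422688, + strand): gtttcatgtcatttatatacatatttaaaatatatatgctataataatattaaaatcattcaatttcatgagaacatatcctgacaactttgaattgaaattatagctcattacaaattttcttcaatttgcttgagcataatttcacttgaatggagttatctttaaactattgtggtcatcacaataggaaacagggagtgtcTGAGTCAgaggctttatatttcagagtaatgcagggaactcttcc
Both strands were searched. The letters CTTTGAT, a core of TCF and LEF binding sites, were in 1 of the 47 member windows, that of the untested Serpinb9b, and in 3.73% of all 32851 windows of this length. The AP-1 letters TGACTCA or TGAGTCA were in 2 member windows and in 5.20% of all windows. The GATA letters GATAAG were in 2 member windows, of Klk5 and Serpinb10, and in 7.44% of all. The KLF letters GGGTGTGG or GGGCGTGG were in 2, of Serpinb5 and Serpinb12, and in 8.58% of all. Counted from the start, the matches began at −167 in Klk5, −23 in Serpinb8 and −45 in Serpinb7, and a second AP-1 match in the Serpinb8 window began at 14, past the printed bases.

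All 10 tested kallikreins rose at 3 µM CHIR99021, and the steps at which they rose differed. Klk7, Klk5 and Klk6 had made most of their change on the log2 scale by 1.5 µM. For Klk14, Klk12, Klk11, Klk10 and Klk9 the larger part of the fitted change lay between 1.5 and 3 µM. Klk10, the most abundant kallikrein in DMSO, rose at 3 µM. Against DMSO, a quasi-likelihood test in edgeR with p-values adjusted over all tested genes called 2 kallikreins higher at 1 µM, 7 at 1.5 µM and 10 at 3 µM, and none lower at any dose. No tested kallikrein was lower at an unadjusted p under 0.05 either, while 5.24, 19 and 30.5% of all tested genes were at the 3 doses. Over all tested genes, the share called higher was 0.189% at 1 µM, 15.4% at 1.5 µM and 29.9% at 3 µM. The median log2 fold change of the 10 was 0.71, 2.49 and 4.63 at the 3 doses, against −0.00459, −0.00175 and −0.03 for all tested genes. The comparisons with DMSO share the DMSO libraries. Klk4, with no more than 8 counts in a library, was not tested.

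Klk7 encodes a chymotrypsin-like protease of the shedding cascade, and its promoter is printed above. Its levels in cultures 1, 2 and 3 were 4.75, 1.83 and 1.62 CPM in DMSO and 36.1, 46.7 and 24.5 CPM at 1 µM. They were 265, 289 and 209.6 CPM at 1.5 µM and 473, 555 and 973 CPM at 3 µM. The 4 groups did not overlap and stood in the order of the doses. The log2 fold change against DMSO was 3.66 ± 0.46 (SE, adjusted p = 0.0173) at 1 µM, 6.49 ± 0.51 (adjusted p = 8.89e-05) at 1.5 µM and 7.88 ± 0.54 (adjusted p = 3.60e-06) at 3 µM. The call at 1 µM was lost without 1 µM replicate 1 (adjusted p = 0.0513), 1 µM replicate 2 (0.0556), DMSO replicate 2 (0.107) or DMSO replicate 3 (0.0596).

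Klk5, a trypsin-like protease that can activate the precursors of Klk7 and Klk14, had 2, 0 and 1 counts in the 3 DMSO libraries. Its levels were 1.78, 1.85 and 0.682 CPM at 1 µM, 15.02, 14.9 and 6.95 CPM at 1.5 µM and 27.7, 32.4 and 32.4 CPM at 3 µM. Again no group overlapped another. The ratio to DMSO from summed counts was 24.9 at 1 µM (95% counting interval 8.25 to 123), 214 at 1.5 µM (72.9 to 1039) and 526 at 3 µM (179.7 to 2555). The adjusted p was 0.0247, 9.01e-05 and 3.62e-06. At 1 µM the call was lost without any one DMSO library, 1 µM replicates 1 or 2, or 3 µM replicates 1 or 2, with adjusted p up to 0.111. The counting intervals here and below cover counting error only.

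Klk6, a trypsin-like protease also found in brain, was at 6.62, 2.64 and 1.45 CPM in DMSO and at 24.0, 29.8 and 22.2 CPM at 1 µM. It was at 124, 138 and 100.4 CPM at 1.5 µM and at 429.6, 727 and 344 CPM at 3 µM. Each dose lay wholly above the one before it. The change at 1 µM, 2.78 ± 0.48 on the log2 scale, had an adjusted p of 0.0565, which was 0.00929 with cultures as a block and 0.00707 without DMSO replicate 1. The fitted log2 fold change was 5.04 ± 0.51 (adjusted p = 0.000278) at 1.5 µM and 7.09 ± 0.56 (adjusted p = 7.20e-06) at 3 µM.

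Klk14, another trypsin-like member of the cascade, followed a different course. Its levels were 3.29, 2.64 and 1.29 CPM in DMSO, 8.23, 4.53 and 3.52 CPM at 1 µM and 13.4, 17.7 and 17.96 CPM at 1.5 µM. At 3 µM they were 386, 476 and 321 CPM. All groups stood apart, and the widest gap was between 1.5 and 3 µM. The step from 1.5 to 3 µM was 4.59 ± 0.37 on the log2 scale (adjusted p = 8.93e-05), a 24.1-fold change. Its log2 fold change against DMSO was 1.17 (adjusted p = 0.259) at 1 µM, 2.76 ± 0.38 (adjusted p = 0.000972) at 1.5 µM and 7.35 ± 0.44 (adjusted p = 1.87e-06) at 3 µM.

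Klk8 (neuropsin), also found in skin, was at 5.73, 2.74 and 2.91 CPM in DMSO, 10.8, 6.14 and 6.65 CPM at 1 µM, 33.0, 38.0 and 28.8 CPM at 1.5 µM and 97.7, 134 and 104 CPM at 3 µM. The groups did not overlap. Its log2 fold change was 3.10 ± 0.32 (adjusted p = 0.000284) at 1.5 µM and 4.85 ± 0.34 (adjusted p = 4.02e-06) at 3 µM. The neighbours Klk9, Klk12 and Klk13 were scarce. In DMSO they were at 0.759 ± 0.0509, 0.316 ± 0.254 and 0.756 ± 0.269 CPM (mean ± SD, n = 3), and at 3 µM at 16.2 ± 4.34, 5.73 ± 1.64 and 13.6 ± 6.13 CPM. Their log2 fold changes at 3 µM were 4.41, 4.31 and 4.13, with adjusted p up to 4.90e-05. At 1.5 µM, Klk9 and Klk13 were called higher and Klk12 was not (0.88, adjusted p = 0.204).

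Klk10 is expressed in normal breast epithelium. Its levels were 173, 77.1 and 85.9 CPM in DMSO, 157, 173 and 69.0 CPM at 1 µM, 229, 317 and 256 CPM at 1.5 µM and 1382, 1462 and 355 CPM at 3 µM. The DMSO and 1 µM libraries overlapped, and every library at 1.5 and at 3 µM lay above both. Culture 3 was the lowest at 3 µM. The log2 fold change was 1.25 ± 0.53 (adjusted p = 0.107) at 1.5 µM and 3.25 ± 0.57 (adjusted p = 0.000858) at 3 µM. With cultures as a block the adjusted p at 1.5 µM was 0.0278, and it was 0.0402 without 3 µM replicate 3.

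Klk11 had the smallest change of the 10 tested kallikreins at 3 µM. It was at 58.4, 42.5 and 35.6 CPM in DMSO and at 88.1, 77.1 and 83.3 CPM at 3 µM, with no overlap, a log2 fold change of 0.86 ± 0.20 (adjusted p = 0.00469). At 1 and 1.5 µM its libraries overlapped with those of DMSO. In DMSO, Klk10 and Klk11 were the only kallikreins above 10 CPM in each library. A noncoding gene on the opposite strand, 2310002F09Rik, overlaps Klk8 to Klk14 in GENCODE M21. It had 4 to 46 counts per library, and whether the counting used the strand is not given in the sources used here.

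**Figure D1:**
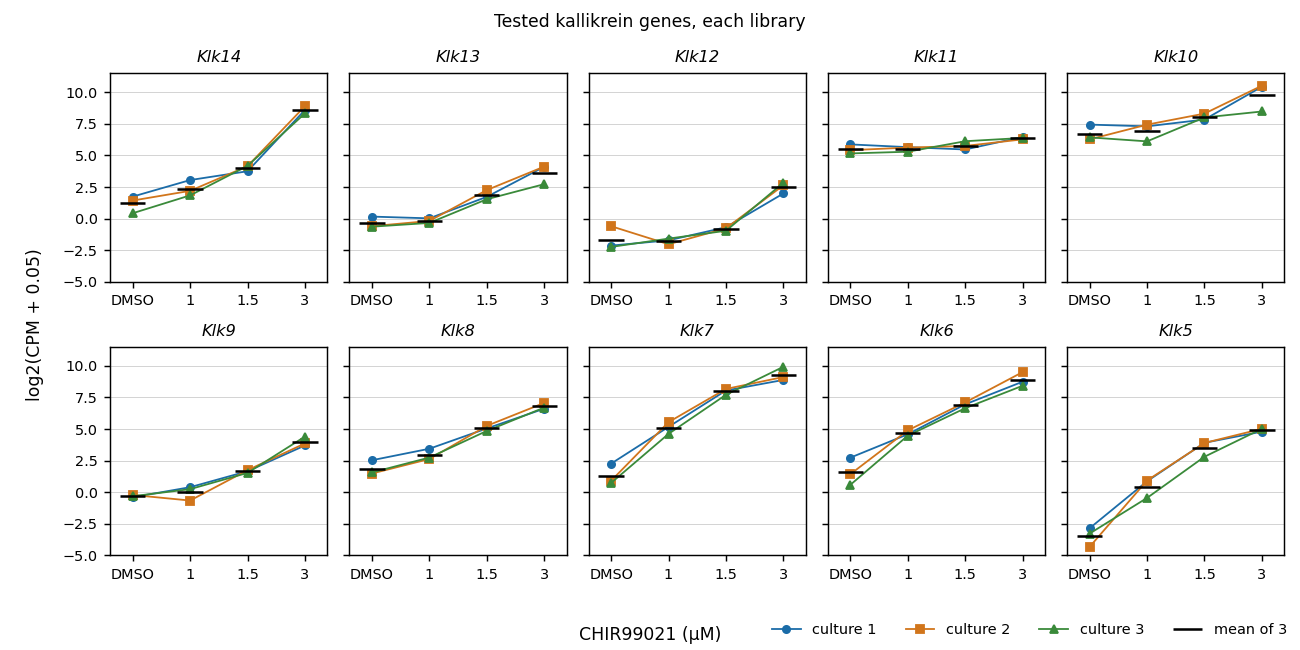
Level of each tested kallikrein in every library as log2(CPM + 0.05) (vertical axis) against the CHIR99021 dose in µM (groups evenly spaced), with cultures 1, 2 and 3 as blue circles, orange squares and green triangles and a black bar at the mean of the 3. Klk7 and Klk6 stand apart at each dose, and Klk14 lies at 13.4 to 17.96 CPM at 1.5 µM and at 321 to 476 CPM at 3 µM.

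The course over the doses can be put as the part of the log2 change at 3 µM that was present at 1.5 µM. It was 85.1% for Klk5 (few counts in DMSO), 82.3% for Klk7, 71.1% for Klk6 and 63.9% for Klk8. It was 53.7% for Klk13, 45.9% for Klk9, 38.5% for Klk10, 37.5% for Klk14, 33.9% for Klk11 and 20.4% for Klk12. From 1 to 1.5 µM, 7 of the 10 tested kallikreins rose, where 4.43% of all tested genes were called higher. The count was 3 without 1.5 µM replicate 1, 1.5 µM replicate 2 or 1 µM replicate 2, and 4 without 1 µM replicate 3. Klk7 (2.83 ± 0.42, adjusted p = 0.00790), Klk5 (3.08 ± 0.42, adjusted p = 0.00653) and Klk8 (2.08 ± 0.30, adjusted p = 0.00737) were called at this step whichever single library was left out. From 1.5 to 3 µM, 9 of the 10 rose, where 17.0% of all tested genes were called higher. The steps of Klk12 (3.43 ± 0.44, adjusted p = 0.000637), Klk9 (2.39 ± 0.29, adjusted p = 0.000481), Klk6 (2.05 ± 0.43, adjusted p = 0.00712) and Klk8 (1.75 ± 0.29, adjusted p = 0.00229) passed the test without any single library. The comparisons of neighbouring doses share the 1.5 µM libraries.

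Of the 17 tested Serpinb genes, 13 rose and 1, Serpinb9, fell at 3 µM. All 10 tested genes of the chromosome 1 cluster were called higher, while of the 7 tested on chromosome 13, 3 were called higher and 1 lower. Over the DMSO libraries, Serpinb3a, Serpinb7, Serpinb3c and Serpinb10 on chromosome 1 had 0, 1, 1 and 2 counts. Serpinb6c on chromosome 13 had 4. A gene kept by the count filter through its high groups had to differ, so the contrast between clusters was not tested. At 1.5 µM, 9 of the 17 were called higher and 2 lower. At 1 µM none was called in either direction by edgeR, with 4 higher and 1 lower at an unadjusted p under 0.05, against 6.5% and 5.24% of all tested genes. DESeq2 called 3, all higher, against 2.42% of the genes it gave an adjusted p (3.51% in either direction). The fit with cultures as a block called 2 higher and 1 lower, against 2.55% and 3.06% of all tested genes (5.61% in all). The shares of all tested genes called higher by edgeR were 0.189% at 1 µM, 15.4% at 1.5 µM and 29.9% at 3 µM. The shares of all tested genes called lower, for reading Serpinb9 and Serpinb6a, were 0.0522% at 1 µM, 11.8% at 1.5 µM and 27.7% at 3 µM. The median log2 fold change of the 17 was 1.47 at 1 µM, 4.03 at 1.5 µM and 6.18 at 3 µM. The other 10 Serpinb genes, with no more than 15 counts in a library, were left untested, among them the epidermal cathepsin inhibitor Serpinb13 with 5 counts over the 3 µM libraries.

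Serpinb5 (maspin), known from normal mammary myoepithelium, was the Serpinb gene with most counts. It was at 261, 168 and 208 CPM in DMSO, 261, 216 and 197 CPM at 1 µM, 312, 309 and 224 CPM at 1.5 µM and 675, 739 and 469 CPM at 3 µM. The first 3 groups overlapped and the 3 µM libraries lay above them. The fitted log2 fold change at 3 µM was 1.56 ± 0.22 (adjusted p = 0.000217), and at 1.5 µM it was 0.41 (adjusted p = 0.187). Serpinb12, an inhibitor of trypsin-like proteases, was at 0.222, 0.914 and 0.485 CPM in DMSO, 14.8, 19.4 and 5.91 CPM at 1.5 µM and 182, 155 and 89.6 CPM at 3 µM. These 3 groups were separate, with log2 fold changes of 4.80 ± 0.76 (adjusted p = 0.00189) and 8.21 ± 0.82 (adjusted p = 2.65e-05). Its step from 1.5 to 3 µM was 3.40 ± 0.60 (adjusted p = 0.00299).

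The mouse homologues of the squamous cell carcinoma antigens, which inhibit cysteine and serine proteases, had next to no counts in DMSO. Serpinb3b was at 0.489, 0 and 0 CPM in DMSO, 8.23, 15.8 and 0.454 CPM at 1 µM, 77.2, 71.1 and 11.7 CPM at 1.5 µM and 234, 234 and 36.9 CPM at 3 µM. Culture 3 was the lowest at each CHIR99021 dose. Its log2 fold change was 7.95 ± 1.61 (adjusted p = 0.00586) at 1.5 µM and 9.61 ± 1.65 (adjusted p = 0.000758) at 3 µM. At 1 µM it was 5.25 (adjusted p = 0.231, and 0.00887 with cultures as a block).

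Serpinb3a had no count in DMSO, and its levels at 3 µM were 33.0, 22.4 and 0.345 CPM. Against a floor of 3 counts over the group, it was at least 60.4-fold higher at 1.5 µM (adjusted p = 0.0563, and 0.00285 with cultures as a block) and at least 307-fold higher at 3 µM (adjusted p = 0.00888). Leaving out 1.5 µM replicate 3 or 3 µM replicate 3 gave 0.0493 and 0.0214 at 1.5 µM. Serpinb3c had 1 count over the DMSO libraries, and its ratio to DMSO was 278 at 3 µM (95% counting interval 49.5 to 11040, adjusted p = 0.00177). At 1.5 µM its ratio was 69.9 (12.2 to 2795, adjusted p = 0.0236), with the call lost without any one DMSO library or without 1.5 µM replicate 1 or 2, at adjusted p up to 0.0798. Serpinb3c, Serpinb3b and Serpinb3a share 12.2, 14.7 and 15% of their 50-base windows with other genes, so part of the reads could be split between them. Serpinb2, Serpinb6c and Serpinb10, given below, share 10.4, 9.92 and 6.97% of their windows with other genes, and the same limit holds there.

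Culture 3 was the lowest at 3 µM for further members, among them Klk13, Spink12, Serpinb12, Serpinb3c and the 3 genes given here. For others, such as Klk7, Spink5 and Serpinb2, it was the highest at 3 µM. Serpinb6c was at 29.8, 25.5 and 8.83 CPM there, against 0.178, 0 and 0 CPM in DMSO (log2 fold change 8.02 ± 1.14, adjusted p = 0.000235). Serpinb10 (bomapin), known from blood cell precursors, was at 16.1, 12.3 and 1.86 CPM at 3 µM, 252 times DMSO (95% counting interval 69.4 to 2088, adjusted p = 0.000109). At 1.5 µM its ratio was 17.7 (adjusted p = 0.0162), which became 0.0512, 0.0541 and 0.0507 without DMSO replicate 1, 2 or 3. Serpinb7 (megsin), an epidermal inhibitor, was at 5.49, 3.21 and 0.621 CPM at 3 µM and at 4.39, 5.61 and 0.521 CPM at 1.5 µM. It had 1 count over the DMSO libraries and a ratio of 193 at 1.5 µM (34.4 to 7670, adjusted p = 0.00880) and 153 at 3 µM (27.0 to 6104, adjusted p = 0.00390). Culture 3 also had the lowest squamous sum and the highest fibroblast sum in each group, and their part in these differences was not tested.

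Serpinb2 (plasminogen activator inhibitor 2) went the other way between cultures. It was at 1.38, 1.83 and 1.13 CPM in DMSO, 13.1, 15.3 and 51.6 CPM at 1.5 µM and 48.1, 87.3 and 173 CPM at 3 µM, so that culture 3 was the highest at both doses. The log2 fold change was 4.23 ± 0.69 (adjusted p = 0.00209) at 1.5 µM and 6.18 ± 0.73 (adjusted p = 7.72e-05) at 3 µM. Serpinb8, an inhibitor of furin, rose from 12.4 ± 1.14 CPM in DMSO to 28.8 ± 4.02 CPM at 1.5 µM and 63.4 ± 20.1 CPM at 3 µM (log2 fold change 2.36 ± 0.22, adjusted p = 1.52e-05). Serpinb8 and Serpinb7 hold the AP-1 letters printed above. Serpinb11 rose from 0.134 ± 0.135 to 20.1 ± 3.50 CPM at 3 µM (6.98 ± 0.67, adjusted p = 2.04e-05). Serpinb1a, related to the neutrophil elastase inhibitor, was called higher at 3 µM only (1.56 ± 0.40, adjusted p = 0.00715). The call for Serpinb1b at 3 µM (1.24 ± 0.47, adjusted p = 0.0457) was kept in 4 of 12 fits that left out a library, with an adjusted p of 0.182 without 3 µM replicate 2.

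Serpinb9, the intracellular inhibitor of granzyme B, fell at 1.5 and at 3 µM. Its levels were 50.7, 61.2 and 49.2 CPM in DMSO and 31.0, 39.5 and 41.2 CPM at 1 µM. They were 17.3, 22.01 and 23.5 CPM at 1.5 µM and 7.84, 9.50 and 6.97 CPM at 3 µM. No group overlapped another, and at 3 µM the level was 6.62-fold lower than in DMSO. The fitted log2 fold change was −0.53 (adjusted p = 0.243, and 0.0408 with cultures as a block) at 1 µM, −1.36 ± 0.17 (adjusted p = 0.000597) at 1.5 µM and −2.73 ± 0.18 (adjusted p = 2.69e-06) at 3 µM. The step from 1.5 to 3 µM was −1.37 ± 0.17 (adjusted p = 0.000576).

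Markers of macrophages and vessels were also lower where Serpinb9 was low. At 3 µM, 4 of 5 macrophage and 4 of 4 endothelial genes were called lower. The macrophage sum was 262, 1326 and 2518 CPM in DMSO cultures 1, 2 and 3, while Serpinb9 was at 49.2 to 61.2 CPM in those libraries. The macrophage sum at 3 µM was 38.8 to 115 CPM. Of the T and natural killer cell genes, 4 were in the table, none was tested, and their sum was at most 0.511 CPM in any library. The part of the macrophage and endothelial changes in the fall of Serpinb9 was not tested.

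Serpinb6a, whose human counterpart inhibits cathepsin G, moved down and then up. It was at 132, 148 and 153 CPM in DMSO, 98.0, 115 and 134 CPM at 1 µM, 77.2, 98.0 and 102 CPM at 1.5 µM and 151, 205 and 148 CPM at 3 µM. The 1.5 µM libraries lay below those of DMSO and of 3 µM, and the DMSO and 3 µM libraries overlapped. Its log2 fold change was −0.64 ± 0.16 at 1.5 µM (adjusted p = 0.0163, and 0.0691 without 1.5 µM replicate 1) and 0.22 at 3 µM (adjusted p = 0.265). From 1.5 to 3 µM it rose by 0.86 ± 0.16 on the log2 scale (adjusted p = 0.00409). Serpinb9e, at 5.07, 3.66 and 0.269 CPM in DMSO and 0.549, 0.963 and 0.483 CPM at 3 µM, overlapped between the groups (−2.15, adjusted p = 0.164). It shares 28.4% of its 50-base windows with other genes.

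**Figure D2:**
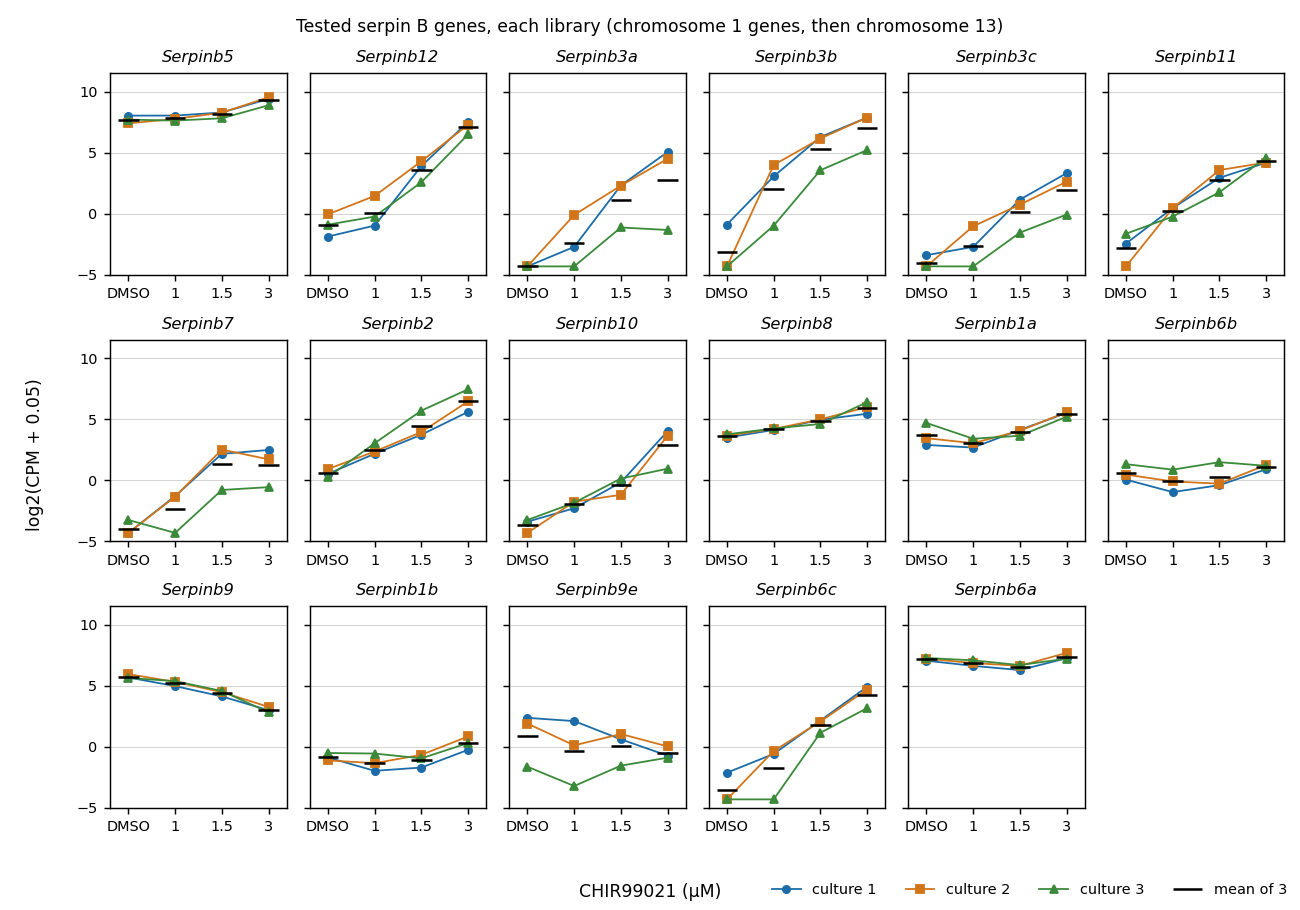
Level of the 17 tested Serpinb genes in every library as log2(CPM + 0.05) (vertical axis) against the CHIR99021 dose in µM (groups evenly spaced), with cultures 1, 2 and 3 as blue circles, orange squares and green triangles and a black bar at the mean of the 3. Serpinb9 steps down to 6.97 to 9.50 CPM at 3 µM, and the green triangles of culture 3 lie below the other cultures for Serpinb3a and Serpinb3b at each dose where they have counts.

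Between neighbouring doses, 2 of the 17 tested Serpinb genes rose and 1 fell from 1 to 1.5 µM. Here 4.43% of all tested genes were called higher and 0.992% lower. With cultures as a block 9 rose and 1 fell, where 11.3% of all tested genes were called higher and 10.5% lower (21.9% in all). In a fit without culture 3, 9 rose and 1 fell, where 7.39% of all tested genes were called. The edgeR count without a block ran from 0 without 1 µM replicate 3, 1.5 µM replicate 1 or 1.5 µM replicate 2 to 7 without 3 µM replicate 3, and was 1 without 1 µM replicate 1 or 2. From 1.5 to 3 µM 10 rose and 1 fell, with 17% of all tested genes called higher and 12.7% lower. Serpinb5 (1.16 ± 0.22, adjusted p = 0.00398) and Serpinb8 (1.14 ± 0.21, adjusted p = 0.00320) rose at this step.

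Of the 3 tested Spink genes, Spink5 and Spink12 rose at 1.5 and 3 µM, where 15.4 and 29.9% of all tested genes were called higher. None was called at 1 µM by edgeR, where 2 were higher at an unadjusted p under 0.05 (6.5% of all tested genes). Both DESeq2 and the fit with cultures as a block called 1 higher, where they called 2.42% and 2.55% of all genes higher. Spink5 encodes LEKTI, the inhibitor of Klk5, Klk7 and Klk14. Its levels were 38.3, 24.0 and 18.04 CPM in DMSO, 44.6, 54.8 and 38.3 CPM at 1 µM, 164, 239 and 162 CPM at 1.5 µM and 353, 439 and 479 CPM at 3 µM. The groups stood in the order of the doses, with 1 µM replicate 3 just above the highest DMSO library. The log2 fold change was 0.78 ± 0.27 (adjusted p = 0.301) at 1 µM, 2.81 ± 0.29 (adjusted p = 0.000278) at 1.5 µM and 3.98 ± 0.30 (adjusted p = 5.89e-06) at 3 µM. The step from 1 to 1.5 µM was 2.04 ± 0.28 (adjusted p = 0.00653) and that from 1.5 to 3 µM 1.17 ± 0.27 (adjusted p = 0.0103), so that 70.6% of the log2 change was present at 1.5 µM.

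Spink12, a Kazal-type member near Spink5 on chromosome 18, was at 0.755, 1.02 and 0 CPM in DMSO, 7.97, 5.60 and 4.999 CPM at 1 µM, 21.1, 38.7 and 34.4 CPM at 1.5 µM and 300.2, 539 and 109 CPM at 3 µM. No group overlapped another. The fitted log2 fold change was 3.50 ± 0.82 (adjusted p = 0.132, and 0.0392 with cultures as a block) at 1 µM, 5.85 ± 0.82 (adjusted p = 0.00109) at 1.5 µM and 9.18 ± 0.88 (adjusted p = 2.19e-05) at 3 µM. Its step from 1.5 to 3 µM was 3.33 ± 0.63 (adjusted p = 0.00398). Spink7 had no count in DMSO or at 1 µM and at most 16 counts elsewhere. It was at least 8.34-fold higher at 1.5 µM (adjusted p = 0.0830, and 0.0152 with cultures as a block) and at least 7.93-fold higher at 3 µM (adjusted p = 0.0513, and 0.0111 with the block). Without 3 µM replicate 3 these were 0.0345 and 0.0150.

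The other 6 Spink genes had no more than 13 counts in a library. Spink8 went from 16 counts over the DMSO libraries to 2 over the 3 µM libraries, a ratio of 0.149 (95% counting interval 0.0166 to 0.632). Spink6, whose human counterpart inhibits kallikreins in skin, went from 3 to 14 counts, a ratio of 5.55 (1.55 to 30.1). The Spink median log2 fold change at 3 µM was 6.11, or 3.98 with Spink7 at its bound.

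Put side by side, the protease and inhibitor families both rose. In each culture the kallikrein sum rose further than the Serpinb sum and less far than the Spink sum. In cultures 1, 2 and 3 the kallikreins held 0.0264, 0.0128 and 0.0132% of all counts in DMSO and 0.254, 0.295 and 0.206% at 3 µM. The Serpinb genes held 0.0489, 0.0399 and 0.0462% in DMSO and 0.131, 0.138 and 0.0996% at 3 µM. The Spink genes held 0.00412, 0.00246 and 0.00185% in DMSO and 0.0571, 0.0826 and 0.0540% at 3 µM. These are fold differences of 9.65, 23.1 and 15.6 for Klk, 2.68, 3.46 and 2.16 for Serpinb and 13.9, 33.6 and 29.2 for Spink. A sum over chosen genes is a description and was given no test.

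Counts in these shares are not scaled by gene length, so their ratio is only compared between libraries, and 0 does not mean equal transcript numbers. The log2 ratio of the Klk share to the summed Serpinb and Spink share sets proteases against inhibitors in each library. It was −1.01, −1.73 and −1.86 in DMSO, −0.75, −0.65 and −1.45 at 1 µM, −0.08, −0.03 and 0.07 at 1.5 µM and 0.43, 0.42 and 0.43 at 3 µM. It was higher in all 3 cultures at each step of dose. The group means were −1.53 ± 0.46, −0.95 ± 0.44, −0.02 ± 0.08 and 0.43 ± 0.01 (SD, n = 3). Serpinb genes held most of the inhibitor counts in each library, so the ratio mostly sets Klk against Serpinb. From DMSO to 3 µM the Spink share alone rose further than the Klk share in all 3 cultures. Single genes also weigh on these sums. Klk10 made up 68.2, 58.6 and 65.9% of the Klk counts in DMSO and 47.4, 41.8 and 15.8% at 3 µM, and Spink5 made up 94.8 to 98.8% of the Spink counts in DMSO. Serpinb5 made up 41 to 55.3% of the Serpinb counts in DMSO and 43.3 to 45.2% at 3 µM. It is counted with the inhibitors here, though it is not thought to trap proteases as described above.

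Without the most abundant member of each family (Klk10, Serpinb5 and Spink5) the ratio was −1.39, −2.16 and −2.48 in DMSO and −0.45, −0.64 and −1.18 at 1 µM. It was then 0.75, 0.69 and 0.66 at 1.5 µM and 0.44, 0.51 and 1.39 at 3 µM. It was higher in all 3 cultures up to 1.5 µM, and from 1.5 to 3 µM it was higher only in culture 3. With all members it was higher in all 3, so leaving out these genes turned the direction of the last step in cultures 1 and 2. The group mean without them was 0.70 at 1.5 µM and 0.78 at 3 µM, and 0.47 at 3 µM without culture 3. The ratio uses read counts and measures neither transcript numbers nor protein.

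**Figure D3:**
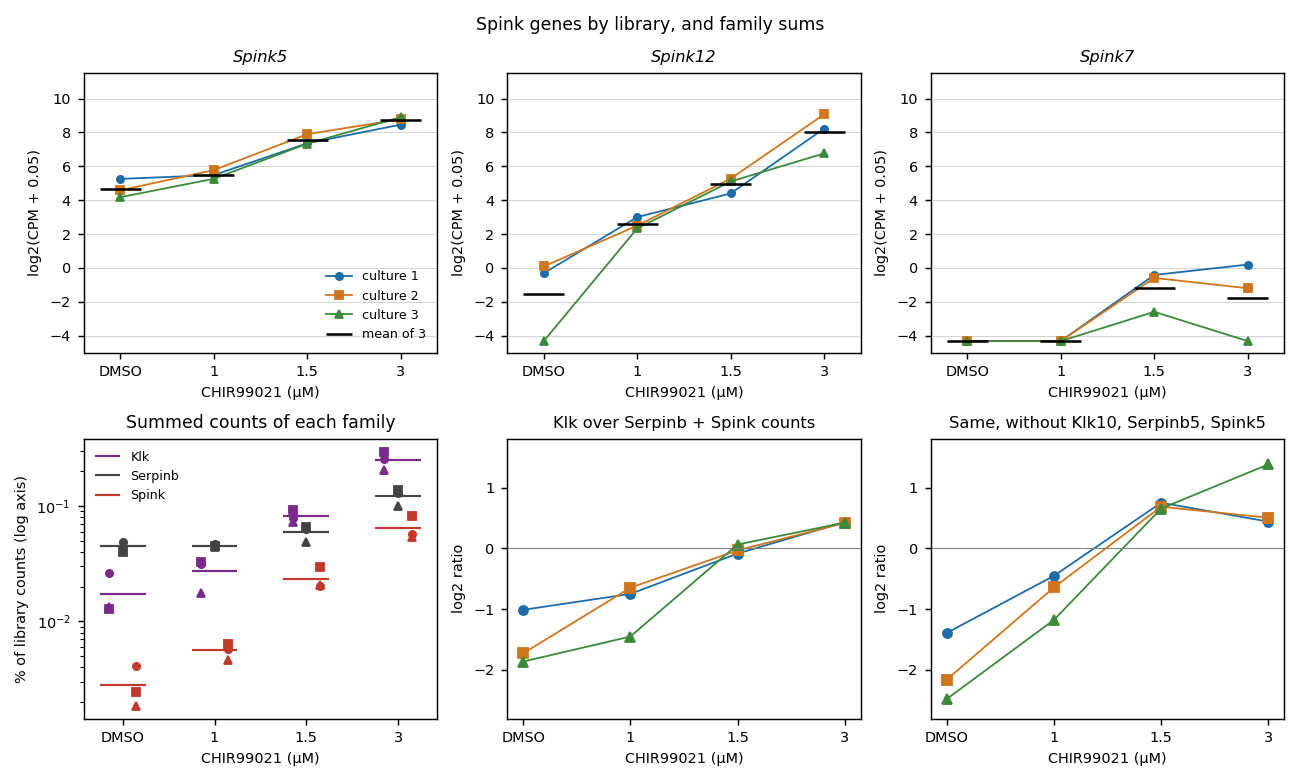
Upper row, level of Spink5, Spink12 and Spink7 in every library as log2(CPM + 0.05). Lower row, percent of all counts held by each family (log axis, coloured by family) and the log2 ratio of Klk to summed Serpinb and Spink counts with and without Klk10, Serpinb5 and Spink5, all against the CHIR99021 dose in µM (groups evenly spaced). Circles, squares and triangles are cultures 1, 2 and 3 and bars the means of 3; with all members the ratio ends at 0.42 to 0.43 at 3 µM.

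By gene, the median log2 fold change at 3 µM was 4.63 over the 10 tested kallikreins and 6.15 over the 20 tested inhibitor genes. The latter was 5.08 with genes absent from DMSO at their bound. A gene that passed the count filter through its high group had to differ. Of the 30 tested members, 6 had at most 3 counts over the DMSO libraries. They were Klk5 among the kallikreins and Serpinb3a, Serpinb3c, Serpinb7, Serpinb10 and Spink7 among the inhibitors. Most of them are inhibitor genes, so the order of these medians was not resolved. At 3 µM, 10 Klk, 13 Serpinb and 2 Spink genes had all 3 libraries above all DMSO libraries, where 30.9% of all tested genes did. Mean CPM was higher at every step of dose for 9 Klk, 10 Serpinb and 2 Spink genes. The share of all tested genes with such a course was not computed, so this count is a description only. Over all members, 2 were called in either direction at 1 µM, 20 at 1.5 µM and 26 at 3 µM, and the shares of all tested genes were 0.242, 27.3 and 57.5%. From 1 to 1.5 µM 11 members were called and from 1.5 to 3 µM 22, with 5.43 and 29.7% of all tested genes.

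**Figure D4:**
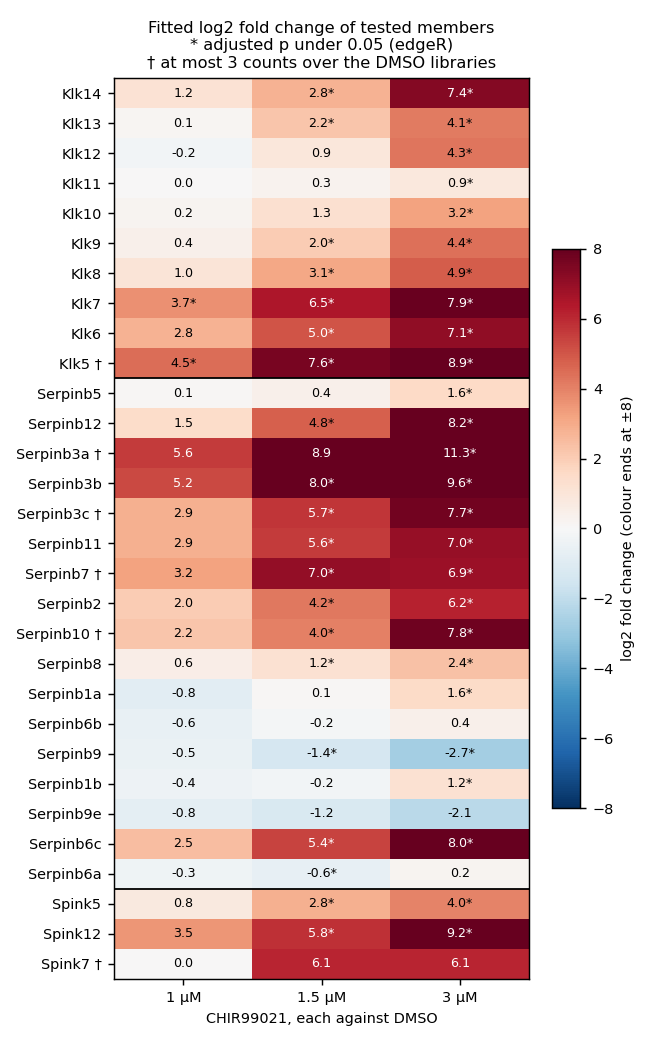
Fitted log2 fold change of the 30 tested members at 1, 1.5 and 3 µM CHIR99021 against DMSO (columns), by family (rows). An asterisk marks an adjusted p under 0.05 and a dagger a member with at most 3 counts over the DMSO libraries, whose fitted value is no bound; Serpinb9 is the 1 member called lower at 3 µM.

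Levels can be compared between genes per kilobase of exon (GENCODE M21). In DMSO the highest values were 81.6 CPM per kilobase for Klk10 and 77.3 for Serpinb5. Klk11 followed at 31.0, Serpinb6a at 26.7, Serpinb9 at 15.4, Serpinb1a at 6.32 and Spink5 at 5.59. At 3 µM, Klk10 was at 776.8 CPM per kilobase, Klk7 at 352, Klk6 at 331, Spink12 at 314 and Klk14 at 310.3. Serpinb5 was at 228, Serpinb3b at 99.5 and Spink5 at 88.6. Per kilobase, the means of 4 kallikreins and Spink12 thus lay above that of Serpinb5 at 3 µM, while in DMSO only that of Klk10 did. Klk10 and Serpinb5 in DMSO, and Klk7, Klk6, Spink12 and Klk14 at 3 µM, differed by less than their SDs, so the order within each set was not resolved. Klk10 and Spink12 varied widely between cultures at 3 µM, at 1066 ± 617 and 316 ± 216 CPM (mean ± SD, n = 3). The places of Klk10 above Klk7 and of Spink12 above Serpinb5 were thus not resolved either.

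Other genes of the same system were taken from lists of named proteases, inhibitors and targets. Of the other epidermal proteases, 25 of 29 were tested, with 3, 10 and 11 called higher and 0, 2 and 4 called lower at 1, 1.5 and 3 µM. The shares of all tested genes were 0.189, 15.4 and 29.9% higher and 0.0522, 11.8 and 27.7% lower. The median log2 fold change of the 25 at 3 µM was 0.58. Asprv1, the protease that processes filaggrin, went from a mean of 3.57 CPM in DMSO to 58.0, 439 and 1323 CPM at the 3 doses. It was called higher at each dose (8.45 on the log2 scale at 3 µM). The edgeR call at 1 µM (3.94, adjusted p = 0.0384) was kept in 2 of 12 fits that left out a library. The membrane proteases Tmprss11d and Tmprss11e rose by 7.55 and 7.43 at 3 µM, and Tmprss11b went from 3 counts over the DMSO libraries to 176, a ratio of 69.8 (95% counting interval 23.5 to 341). Matriptase (St14) and prostasin (Prss8), also part of epidermal protease cascades, had log2 fold changes of 0.09 (adjusted p = 0.648) and −0.15 (adjusted p = 0.360).

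Of the other protease inhibitors, 25 of 33 were tested, with 1, 8 and 9 called higher and 0, 3 and 5 lower at the 3 doses. The shares of all tested genes were 0.189, 15.4 and 29.9% higher and 0.0522, 11.8 and 27.7% lower. The median of the 25 was 0.07 at 3 µM. The genes with the largest changes were the cystatin A-like Csta1 (11.54), Stfa3 (8.82) and BC100530 (8.66) and Stfa2, which was absent from DMSO and higher by at least 422-fold at 3 µM. Cystatin M (Cst6), an inhibitor of lysosomal cysteine proteases in skin, rose by 3.44 at 1 µM (adjusted p = 0.00358) and by 6.49 at 3 µM. Spint1 and Spint2, which inhibit matriptase, had values of 0.32 (adjusted p = 0.293) and 0.44 (adjusted p = 0.0565) at 3 µM.

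Of the proteins that kallikreins cut or that hold the upper epidermis together, 18 of 20 were tested. At the 3 doses, 3, 12 and 14 were called higher and 0, 0 and 2 lower. The shares of all tested genes were 0.189, 15.4 and 29.9% higher and 0.0522, 11.8 and 27.7% lower. The median of the 18 was 5.25 at 3 µM. Corneodesmosin (Cdsn), desmocollin 1 (Dsc1) and desmogleins 1a and 1b (Dsg1a, Dsg1b), all adhesion proteins of shed cells, rose by 6.76, 8.63, 6.75 and 7.65 at 3 µM. The cornified layer genes Lor and Flg had 3 counts each over the DMSO libraries, and their ratios at 3 µM were 1777 (95% counting interval 608 to 8622) and 1126 (385 to 5465). Flg2, absent from DMSO, was higher by at least 65.8-fold. The 2 genes called lower were the thrombin receptor F2r (−1.89) and the antimicrobial peptide gene Camp (−2.41). The receptor PAR2 (F2rl1), which some kallikreins activate, had a value of 0.06 (adjusted p = 0.887).

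**Figure D5:**
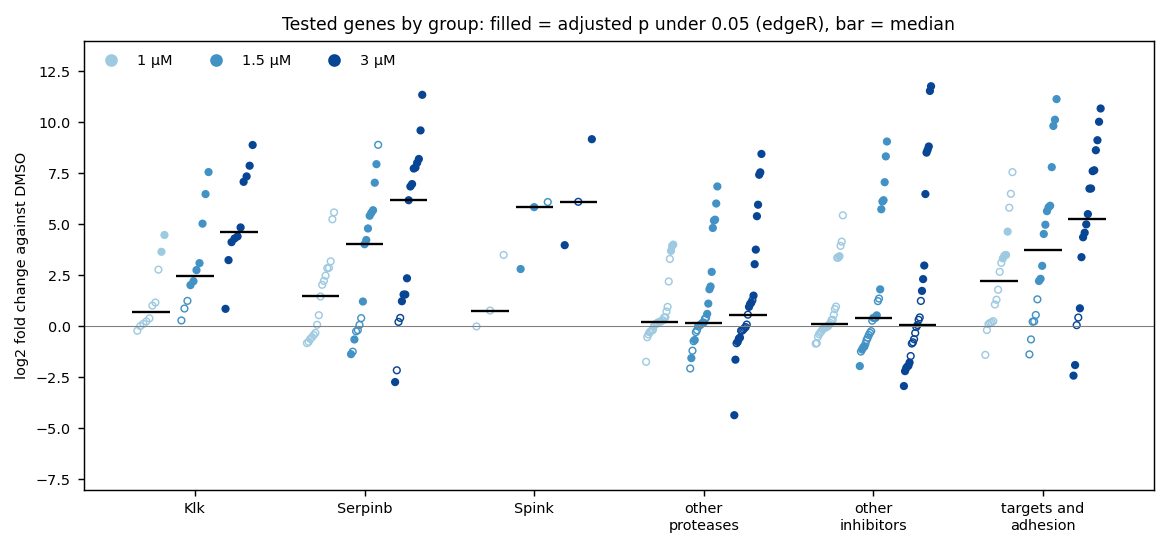
Log2 fold change against DMSO (vertical axis) of each tested gene at each CHIR99021 dose, coloured by dose as in the legend. Genes are grouped into the 3 families and the 3 lists of other proteases, other inhibitors and kallikrein targets. Filled points have an adjusted p under 0.05 and bars are the medians at each dose. The medians at 3 µM are 4.63 for Klk and 6.18 for Serpinb, against 0.58 for other proteases and 0.07 for other inhibitors.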

How the data were processed

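Libraries were prepared from polyA+ RNA with a stranded TruSeq kit, per the labels' protocols. For each Ensembl gene the authors deposited raw read counts, and in a second file log2 values. Per the submitters' processing notes, the tools were TopHat2 2.1, Bowtie 1.1.0, HTSeq and DESeq2 and the builds GRCm38 and mm10. Strand use in counting is not given in the sources used here. The deposited log2 values equalled log2 values recomputed from the counts (0 differed beyond 1e-06) and were not used.

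The members and gene lists were chosen with earlier results of these data known. Groups follow the titles. Genes were kept by filterByExpr (15316 of 25210), scaled by TMM and tested on counts in edgeR 4.0.16 (R 4.3.3) with the two-sided quasi-likelihood F test over all 12 libraries and 1 mean per group. P-values were adjusted by the Benjamini-Hochberg method over all tested genes, with a threshold of 0.05. CPM uses TMM-scaled totals of 9.85 to 26.03 M counts. The steps were checked on simulated counts.

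Replicate numbers are animals. Deviations from group means correlated from 0.177 to 0.840 in the 18 same-number pairs (median 0.505), against a median of −0.212 in 36 other pairs. The fit with a replicate block is given beside results whose call it changed.

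Members given per library are the 5 largest changes per family at 3 µM among called genes with a highest group mean of at least 1 CPM, the 3 with most counts and those called against their family. From each list the 4 largest called changes were named by the same minimum. Klk9, Klk11, Klk12, Klk13, Serpinb1a, Serpinb1b, Serpinb2, Serpinb3c, Serpinb7, Serpinb8, Serpinb9e, Serpinb11, Serpinb13, Spink6, Spink7 and further list genes were named after their values were seen. Alternatives were the replicate block, DESeq2 1.42.0, library size scaling, no count filter, 2-group fits and leaving out libraries. No protein sequences were used here.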

Additional observations from a re-analysis of the deposited data

How the results depend on the processing

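Without the replicate term, 2 members were called at 1 µM against DMSO, and the replicate block gave 7, DESeq2 gave 8 and a fit of only the 2 groups gave 0. Of all genes these 4 fits called 0.242%, 5.61%, 3.51% and 0%. Leaving out single libraries gave 0 to 2. From 1 to 1.5 µM, 11 members were called, against 20 with the replicate block and 18 without culture 3, an alternative chosen after the values were seen (5.43%, 21.9% and 7.39% of all genes), and 4 to 16 without single libraries. The other counts stayed within 1.5 times of the main count, with single libraries left out giving 18 to 23 against 20 at 1.5 µM, 25 to 26 against 26 at 3 µM and 15 to 23 against 22 from 1.5 to 3 µM. The mean log2 ratio of Klk to inhibitor counts without Klk10, Serpinb5 and Spink5 was −2.01 in DMSO, 0.70 at 1.5 µM and 0.78 at 3 µM, and without single libraries it ran from 0.47 to 0.95 at 3 µM. With all members, leaving out single libraries gave −1.80 to −1.37 in DMSO, −1.10 to −0.70 at 1 µM, −0.06 to 0.02 at 1.5 µM and 0.42 to 0.43 at 3 µM. No called direction of a member or list gene named by the rule reversed under the alternatives run. Scaling by library size alone moved the median log2 change of all tested genes at 3 µM from −0.03 to −0.229 and changed the direction of 0 tested members against DMSO. From 1.5 to 3 µM it moved this median to −0.276, where the sign of Spink7 flipped. The replicate block changed no call of a named member at 3 µM against DMSO other than that of Spink7. Of the 30 tested members, 10 had under 10 counts in each DMSO library, so their DMSO level is known poorly. The cause of the changes between settings was not tested.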

Other observations

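A test of the difference between the 3 cultures, added after the values were seen, used the replicate term of the edgeR fit with groups and cultures. It called 8 of the 30 tested members (26.7%), where 28.8% of all tested genes were called. These shares were close, so the count does not set the members apart from other genes. The genes called were Serpinb2, Serpinb3a, Serpinb3b, Serpinb3c, Serpinb6b, Serpinb6c, Serpinb7 and Serpinb9e. Klk13 (adjusted p = 0.0760) and Spink7 (0.0829) lay just above the threshold, and no contrast between the families is drawn. The adjusted p was 0.00131 for Serpinb3b, 0.00949 for Serpinb3a, 0.00429 for Serpinb3c and 0.0176 for Serpinb2. Outside the naming rule, the kallikrein genes Klk1b11, Klk1b26 and Klkb1 had 6, 2 and 1 counts over all 12 libraries.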
